A study of Homo sapiens with 6 samples.

Results

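Neural RNA-binding and splicing regulators were examined through 10 genes: RBFOX1, RBFOX2, RBFOX3, ELAVL3, ELAVL4, NOVA1, NOVA2, PTBP1, PTBP2 and MSI1. They were chosen by name and known function, with no threshold on a peak value, and all 10 were found among the 20037 protein-coding genes of the RefSeq table (GRCh38.p14). A peak was assigned to a gene when it shared at least 1 bp with the gene interval extended by 10 kb on each side. By that rule 103 of 78694 H3K27ac peaks and 64 of 43677 CTCF peaks belonged to these genes. RBFOX1, RBFOX3, ELAVL3, ELAVL4, NOVA1, NOVA2 and PTBP2 were treated as the 7 neuronal regulators, and RBFOX2, PTBP1 and MSI1 as the 3 progenitor and ubiquitous regulators.

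The cells were neurons of the established human line KOLF2.1J, a clonal line of induced pluripotent stem cells, obtained by differentiating neural progenitors in BrainPhys culture; the labels name no genotype change and no treatment. Chromatin immunoprecipitation followed by sequencing was carried out with an antibody to CTCF in 2 libraries and with an antibody to acetylated lysine 27 of histone H3 (H3K27ac) in 2 libraries, beside 2 input libraries. Each antibody has 1 deposited peak list that covers both of its libraries, so no spread between replicates and no test between samples was possible, and the read depth behind a peak is unknown. The series addressed the control of the tau gene MAPT by distant elements. No progenitor sample was analysed here, so the comparison between neuronal and progenitor regulators is between genes within the same neurons.

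H3K27ac accumulates at active promoters and enhancers, whereas CTCF binds DNA at loop anchors and domain borders. Alternative splicing in the nervous system is set by RNA-binding proteins that act on the transcripts of many other genes. PTBP1 represses neuronal exons in progenitors and in most non-neuronal cells, and its paralog PTBP2 takes over as neurons form. NOVA, RBFOX and neuronal ELAVL proteins then direct neuronal exon choice and messenger RNA stability, and RBFOX3 is the antigen NeuN by which mature neurons are recognised. MSI1 (Musashi-1) is a translational regulator of neural stem cells.

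All 10 genes had at least 1 H3K27ac peak, against 76.9% of all protein-coding genes, and 9 had at least 1 CTCF peak, against 75.0%. Among the 50% of CTCF peaks with the highest signal, the members with a peak numbered 5 (RBFOX1, RBFOX2, RBFOX3, ELAVL3 and MSI1), against 57.3% of all protein-coding genes. With backgrounds that high, the counts alone say little about these genes, and the differences lay in where the peaks were and how strong they were. H3K27ac values are given as fold enrichment at the peak summit, as the authors' column was read from its range, and CTCF values as the authors' peak signal, whose scale is not stated, so the marks are not compared with each other in height. The highest H3K27ac fold enrichment per gene ran from 5.96 in RBFOX3 to 50.3 in MSI1. In rising order the genes between them were RBFOX1 (9.91), ELAVL3 (11.6), ELAVL4 (11.9), NOVA2 (20.1), RBFOX2 (23.0), PTBP1 (27.1), NOVA1 (31.4) and PTBP2 (40.8). Without replicate values, no neighbours in this order can be said to differ. The median over all protein-coding genes was 12.3, with quartiles at 3.51 and 23.9.

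**Figure D1:**
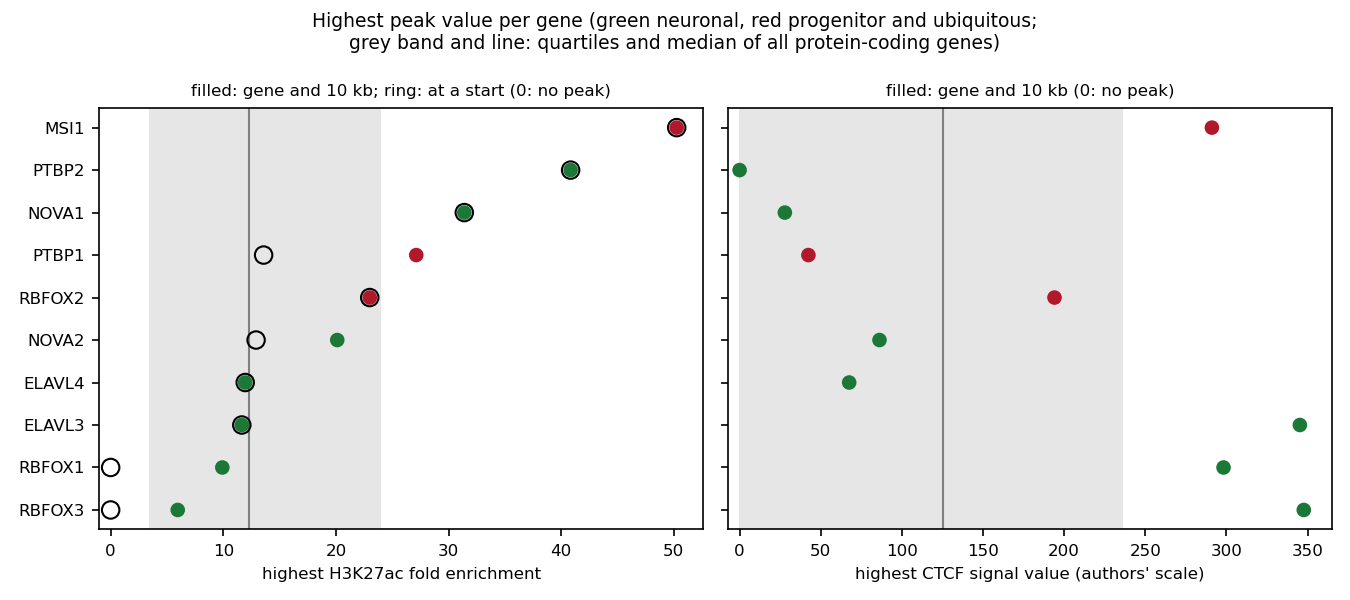
Highest H3K27ac fold enrichment (left) and highest CTCF signal value (right) in each gene interval extended by 10 kb. Filled points are genes (green neuronal, red progenitor and ubiquitous), and grey marks the median and quartiles of all protein-coding genes. Rings give the summit value of the strongest H3K27ac peak overlapping an annotated start window or, for RBFOX2, ELAVL3 and MSI1, a gene-end window. That summit can lie outside the window. RBFOX1 and RBFOX3 have rings at 0, and MSI1, PTBP2, NOVA1 and PTBP1 have points above the upper quartile of 23.9, PTBP1 through a peak over the start of PLPPR3 (23.6 without it) and with its ring lower at 13.6.

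The 3 progenitor and ubiquitous regulators had a median highest fold enrichment of 27.1, and the 7 neuronal regulators one of 11.9, a ratio of 0.440 (neuronal over the others). The value of 27.1 is that of PTBP1, from a peak 9.07 kb outside the gene over the start of its neighbour PLPPR3. Without that peak PTBP1 had 23.6 and the ratio was 0.506. The groups overlapped: PTBP2 and NOVA1 exceeded both RBFOX2 and PTBP1 with or without that peak. Genes are not replicates, so no p-value is attached to this difference. The direction depended on the flank, because with 50 kb on each side the medians were 28.7 and 27.1 and the ratio was 1.06. The wider flank brought in a peak of 31.3 over the start of ECSIT for ELAVL3, and peaks of 28.7 and 26.6 that overlapped no protein-coding gene for NOVA2 and ELAVL4.

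**Figure D2:**
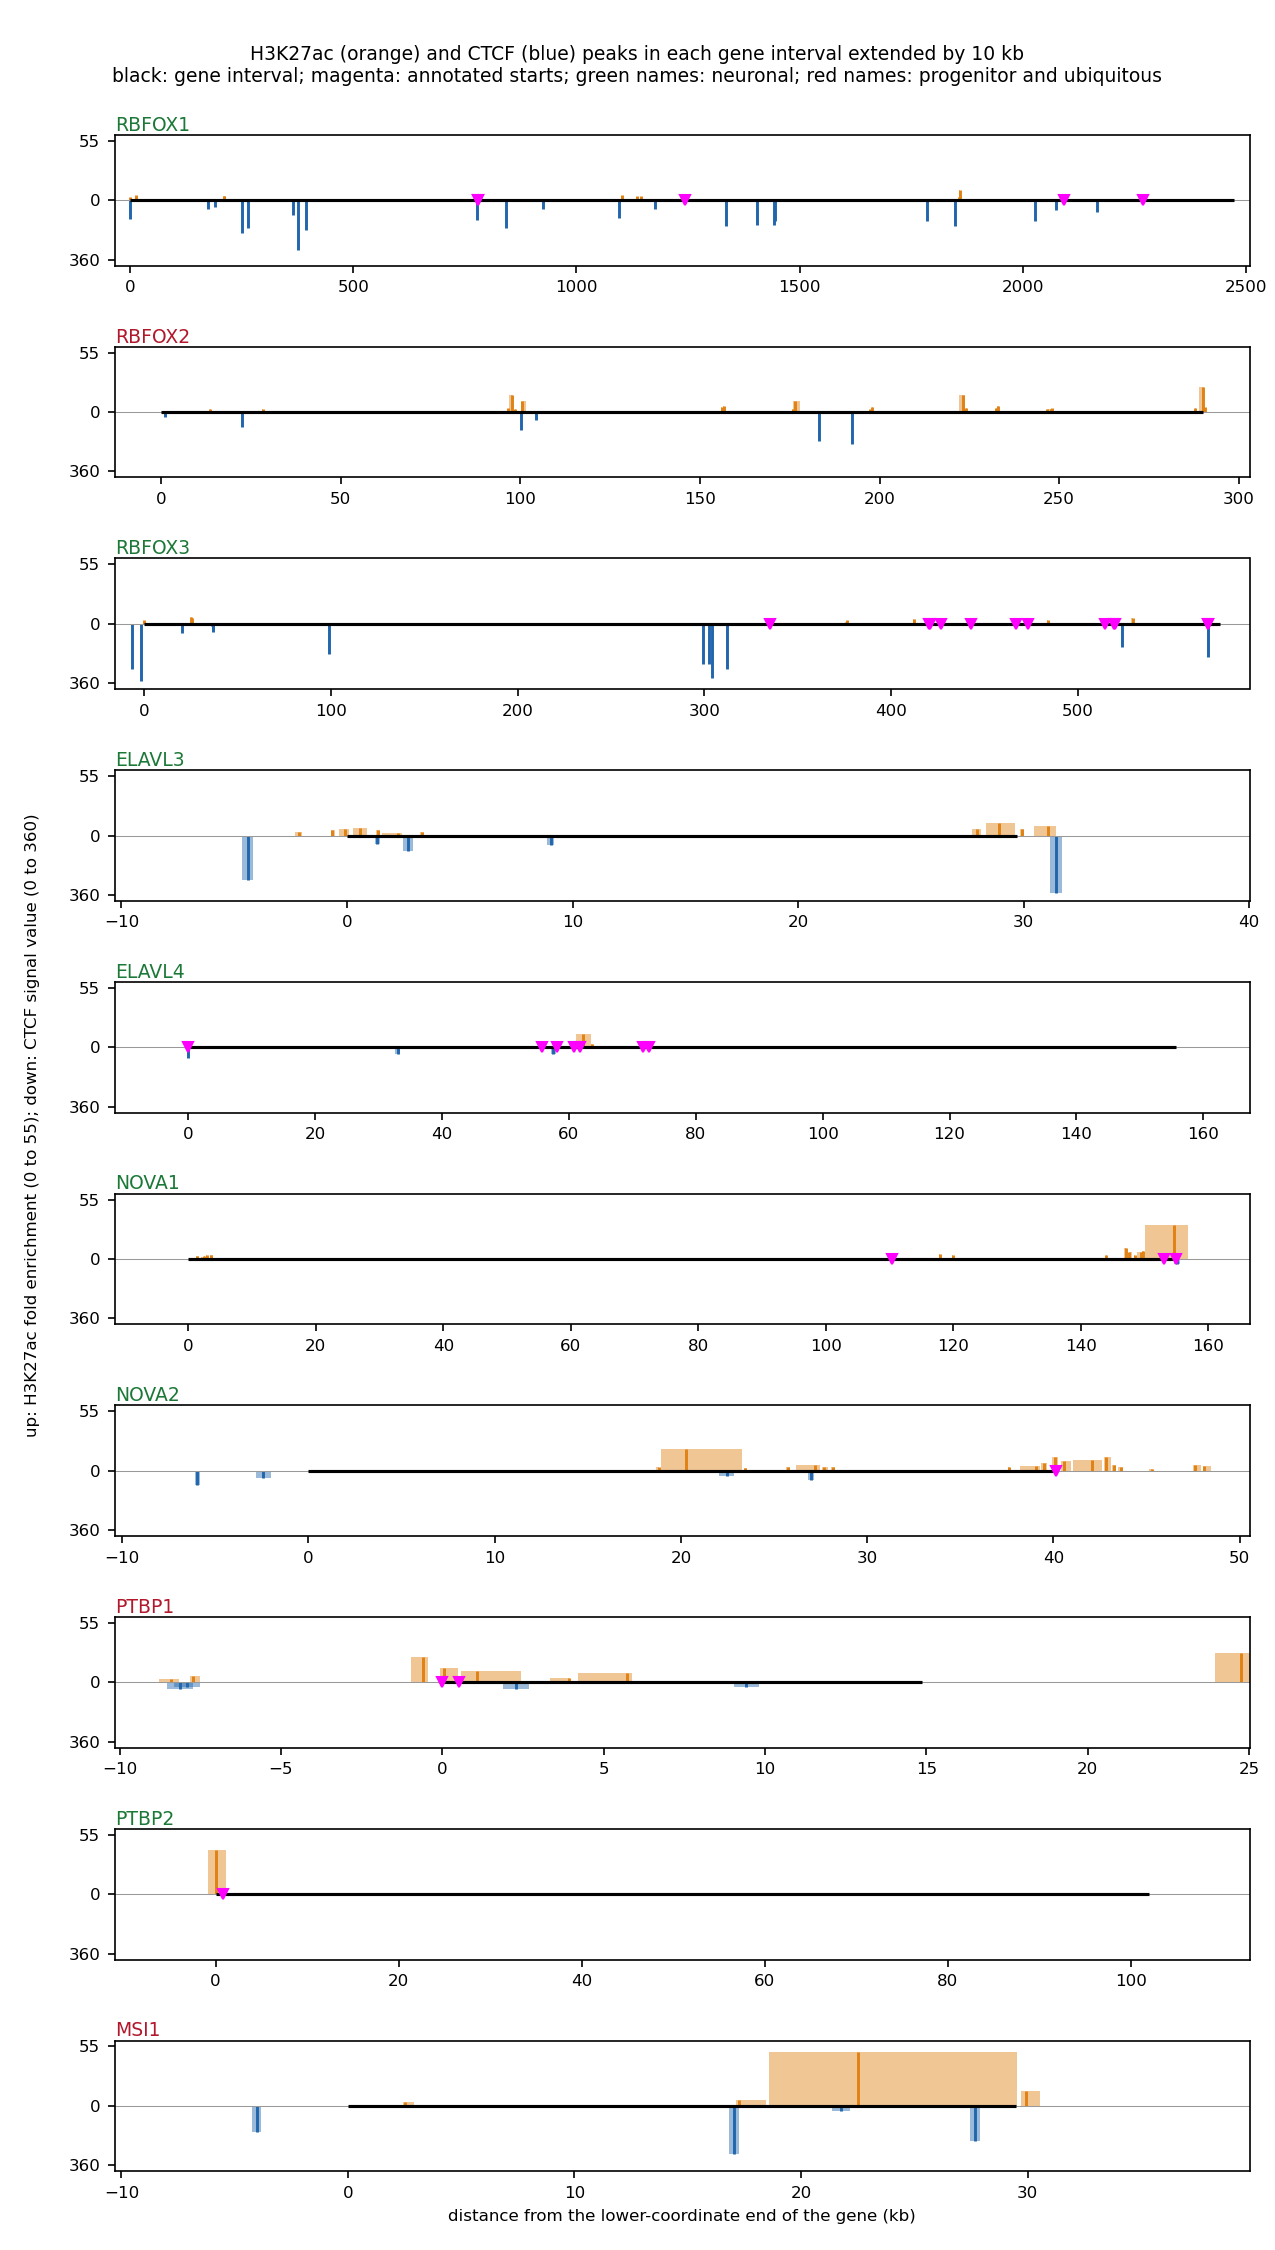
Peaks of both lists along each of the 10 genes; the horizontal axis is the distance in kb from the lower-coordinate end of the gene, to a different scale in each panel. Bars span the peak intervals with a line at the summit, H3K27ac fold enrichment points up (orange) and CTCF signal value points down (blue), the black line is the gene and magenta triangles are annotated starts, which are not drawn for RBFOX2, ELAVL3 and MSI1. MSI1 and NOVA1 show wide H3K27ac intervals of 10.965 and 6.754 kb, PTBP2 shows 1 peak, and RBFOX1 and RBFOX3 show mostly CTCF peaks.

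The polypyrimidine tract-binding paralogs differed in layout. PTBP2 (chr1:96721784-96823739, 101.956 kb) had 1 H3K27ac peak and no CTCF peak. That peak, chr1:96720987-96722963, was 1977 bp wide, covered the annotated start, and had a fold enrichment of 40.8, rank 1108 of the 78694 peaks in the list. Of the 1458 protein-coding genes within 20% of its length, 91.2% had a lower highest value, but only 10.2% had fewer H3K27ac peaks, and the median of those genes was 4 H3K27ac and 2 CTCF peaks. Acetylation of PTBP2 was therefore listed at its start and nowhere else in the gene or its 10 kb flanks.

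PTBP1 (chr19:797452-812312, 14.861 kb), the repressor that PTBP2 succeeds, had 8 H3K27ac peaks. Over its annotated starts lay chr19:797371-797928 with a fold enrichment of 13.6 and chr19:798020-799878 with 10.2. A stronger peak, chr19:796467-797005, lay 0.447 kb outside the gene on the side of the starts and had a fold enrichment of 23.6. The highest value in its window, 27.1 at chr19:821382-823093, lay 9.07 kb beyond the other end and covered the annotated start of PLPPR3, the neighbouring gene. It was the only one of the 103 H3K27ac peaks that covered an annotated start or gene end of another protein-coding gene. Without it the highest value for PTBP1 was 23.6, so PTBP1 stayed below PTBP2. The 4 CTCF peaks of PTBP1 had signal values of 27.1 to 42.4 and all had a width of 800 bp, which recurs in 33.4% of the CTCF list. Of these, 2 overlapped each other.

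The NOVA genes encode KH-domain proteins that bind YCAY-type sites in neuronal transcripts. NOVA1 (chr14:26443090-26598033) had 14 H3K27ac peaks, and the strongest, chr14:26593129-26599882, spanned 6.754 kb across the gene's outermost start with a fold enrichment of 31.4. Its width ranked 38 of 78694. Another 5 peaks with values of 4.14 to 9.74 followed within the gene between 26589925 and 26593042, and 5 weak peaks with values of 2.05 to 3.57 lay near the opposite end. The only CTCF peak of NOVA1, chr14:26597813-26598612, lay inside the wide acetylated interval, had a signal value of 27.9 and the recurrent width of 800 bp. Of the 1058 genes of similar length, 86.7% had fewer H3K27ac peaks and 7.84% had fewer CTCF peaks.

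NOVA2 (chr19:45933734-45973865) had 19 H3K27ac peaks in an extended interval of 60132 bp, 31.6 per 100 kb, a density above that of 98.4% of all protein-coding genes. Its strongest peak did not lie at the start. It was chr19:45952658-45957010, 4.353 kb wide, with a fold enrichment of 20.1, inside the gene, with its summit 20.25 kb from the lower-coordinate end of this minus-strand gene and hence away from the start. The peak over the annotated start, chr19:45973649-45973966, had a fold enrichment of 12.9. It belonged to a row of closely spaced peaks that ran on outside the gene, the next of which had values of 8.71, 9.51 and 12.5. Together the H3K27ac peaks covered 20.9% of the extended interval of NOVA2, against 6.07% for NOVA1. The 4 CTCF peaks of NOVA2 had signal values between 31.3 and 86.2, all below the list median of 91.0.

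The ELAVL genes encode Hu proteins, which bind AU-rich elements of messenger RNA; ELAVL3 is HuC and ELAVL4 is HuD. ELAVL3 (chr19:11451326-11481046) had 11 H3K27ac peaks, with values of 2.47 to 11.6 and acetylation at both ends of the gene. Near the higher-coordinate end lay chr19:11479657-11480963 (fold enrichment 11.6), chr19:11481185-11481345 (5.75) and chr19:11481789-11482767 (8.47). Around the lower-coordinate end lay a run of weaker peaks, the strongest of which was chr19:11451603-11452202 with a fold enrichment of 6.86. No H3K27ac peak was listed between 11454724 and 11479028, the middle of the gene. The strongest CTCF peaks of ELAVL3 stood outside the gene on either side: chr19:11446686-11447154 with a signal value of 272, inside PRKCSH, and chr19:11482506-11483023 with 345. The second of these was above 98.7% of the CTCF list and overlapped the H3K27ac peak with the value of 8.47.

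ELAVL4 (chr1:50048055-50203772) was acetylated at an internal start and not at the end of the gene where its interval begins. Its 4 H3K27ac peaks all lay between 50108480 and 50111892, well inside the gene. The strongest, chr1:50109162-50111478, was 2317 bp wide, had a fold enrichment of 11.9 and covered the start at 50109833. The others had values of 3.91, 3.21 and 3.07, and the one of 3.21 covered another start. At the outermost start, at 50048055, the listed peak was one of CTCF, chr1:50047877-50048125 with a signal value of 67.5, and the nearest H3K27ac peak was 60.4 kb away. The other CTCF peaks of ELAVL4 had signal values of 40.8 and 40.3, the latter over a further start. ELAVL3 thus held 22.1 H3K27ac peaks and 12.1 CTCF peaks per 100 kb of extended interval, and ELAVL4 held 2.28 and 1.71. The extended intervals were 49721 and 175718 bp long. For ELAVL3, 4 H3K27ac and 2 CTCF peaks lay only in the flanks, against 0 of either for ELAVL4. Of those 4, the peaks of 3.62 and 5.04 lay inside the neighbouring gene PRKCSH.

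The RBFOX paralogs, which bind GCAUG in introns next to regulated exons, separated into RBFOX2 on one side and RBFOX1 and RBFOX3 on the other. RBFOX2 (chr22:35738736-36028824), which is expressed in many tissues, had 22 H3K27ac peaks, more than 86.4% of the 515 genes of similar length. The strongest, chr22:36027573-36028966, contained the higher-coordinate end of the gene and had a fold enrichment of 23.0. Inside the gene lay chr22:35960884-35962466 with 15.8, chr22:35835492-35836772 with 15.6, chr22:35914763-35916612 with 10.3 and chr22:35838903-35840397 with 10.0. The other 17 peaks had values of 2.40 to 5.49. The 6 CTCF peaks of RBFOX2 had signal values of 26.9 to 194, and 1 of them overlapped an H3K27ac peak.

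RBFOX3 (chr17:79089345-79665571), the NeuN gene, had 8 H3K27ac peaks, none of which covered any of its 12 annotated start windows. The strongest had a fold enrichment of 5.96 at chr17:79114290-79114740, with its summit 25.2 kb from the lower-coordinate end of this minus-strand gene and far from its starts. The widest, chr17:79617849-79619151, had a value of 5.58 and was 8.44 kb from the nearest start window. Of the 203 genes of similar length, 12.8% had a lower highest value, with a median of 14.5 over the 203. In number of H3K27ac peaks 37.9% of them had fewer, with a median of 11. The weakest peak, with 1.86, had a q-value above 0.05, and was 1 of 5 such H3K27ac peaks among the 103 of all members. These values stand beside 14 CTCF peaks, more than in 92.1% of the genes of similar length. Of the 14, 2 also had a q-value above 0.05, with signal values of 12.0 and 15.1.

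The CTCF peaks of RBFOX3 included strong ones, and 9 of the 14 were at or above the list median. A group of 4 lay within the gene from 79388435 to 79401527, with signal values of 241, 244, 326 and 275. At the outermost start, chr17:79658820-79659272 had a signal value of 202 and covered both overlapping start windows, with no H3K27ac peak within 36.2 kb of them. The highest value, 348 at chr17:79087512-79088017, lay outside the gene in ENGASE and was above 98.8% of the CTCF list. Another 3 peaks of 800 bp, with values of 12.0, 28.7 and 50.2, overlapped one another, so that the 14 entries merged into 12 intervals. None of the 14 overlapped an H3K27ac peak, against 28.1% of the whole CTCF list that did.

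RBFOX1 (chr16:5239721-7713340) spans 2473.62 kb and had 12 H3K27ac peaks and 22 CTCF peaks. The H3K27ac density of 0.481 per 100 kb was below the median of 3.95 over all protein-coding genes, and so was its CTCF density of 0.882, against a median of 2.53. Of the 7 other genes within 20% of its length, the median was 41 H3K27ac and 10 CTCF peaks, and 42.9% had a lower highest H3K27ac value. The strongest H3K27ac peak, chr16:7098036-7098407, was 372 bp wide with a fold enrichment of 9.91, and the other 11 had values of 3.03 to 4.87. No H3K27ac peak covered any of the 5 annotated start windows of RBFOX1, and the distance from a window to the nearest one was 99.4 to 411 kb. A weak peak, chr16:5239936-5240072 with a value of 3.38, lay within 250 bp of the outermost end of the gene interval, where CTCF had a peak of 114 (chr16:5239485-5239911). The strongest of the 22 CTCF peaks was chr16:5616048-5616531 with 298, and 15 were at or above the list median. As in RBFOX3, none overlapped an H3K27ac peak, against 28.1% of the whole CTCF list that did. The CTCF peak of 114 nevertheless ended just short of the H3K27ac peak of 3.38.

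MSI1 (chr12:120339662-120369164) held the strongest and widest acetylation of the 10 genes. Its main H3K27ac peak, chr12:120358230-120369194, was 10.965 kb wide, which ranked 4 of 78694 in the list, and its fold enrichment of 50.3 ranked 503. The interval corresponded to 37.2% of the length of the gene and contained its higher-coordinate end. Beside it lay chr12:120369376-120370223 with a value of 13.6, chr12:120356798-120358118 with 5.40 and chr12:120342092-120342567 with 3.74. The H3K27ac peaks covered 27.5% of the extended interval, a larger share than in 98.9% of all protein-coding genes. Of 4 CTCF peaks, 1 with a signal value of 291 (chr12:120356482-120356944) overlapped the peak of 5.40 next to the wide one, and those with 216 (chr12:120367106-120367567) and 28.6 lay inside the wide one. The other, with 157, lay outside the gene.

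**Figure D3:**
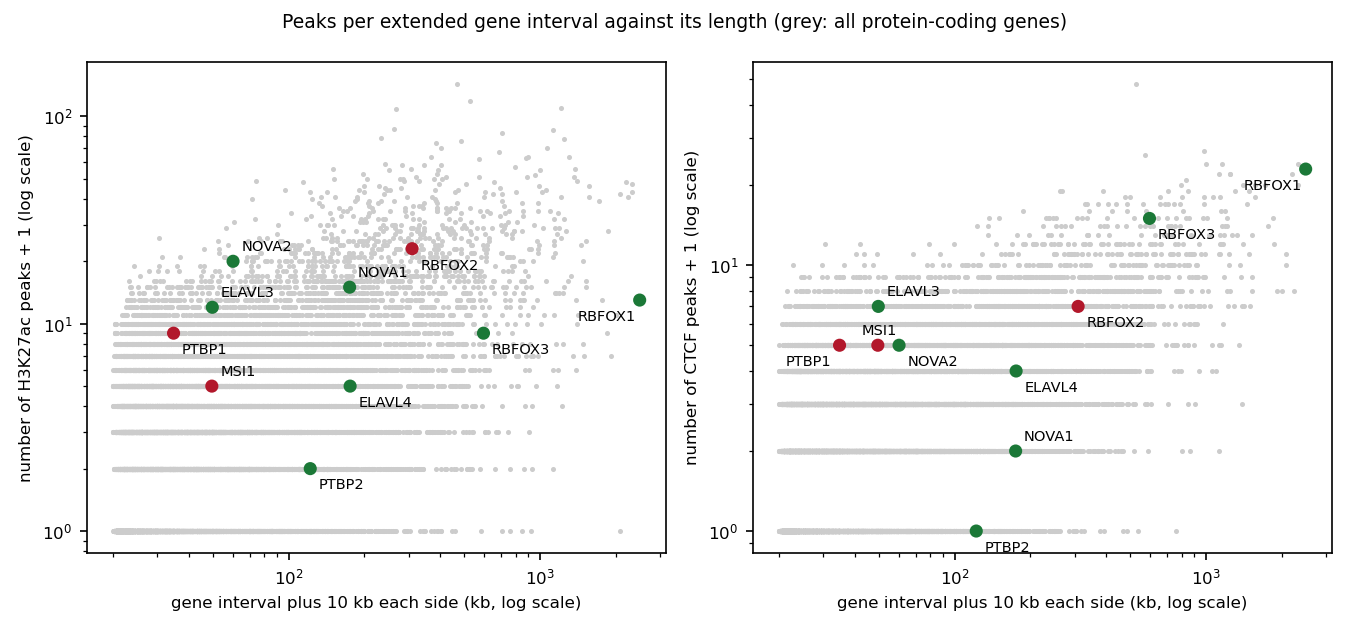
Number of H3K27ac peaks (left) and CTCF peaks (right) plus 1 in each extended gene interval against the length of that interval in kb, both on log axes, for all 20037 protein-coding genes (grey) and the 10 regulators (green neuronal, red progenitor and ubiquitous). RBFOX1 and RBFOX3 lie below the median H3K27ac number of genes of similar length (12 against 41, and 8 against 11). Both lie above the median CTCF number (22 against 10, and 14 against 7), with only 7 genes of similar length for RBFOX1. NOVA2 and ELAVL3 lie high for their length in H3K27ac, and PTBP2 has 1 H3K27ac and 0 CTCF peaks.

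The starts were then compared one by one. RefSeq start windows (GRCh38.p14, 250 bases before to 50 after a start) were found for 7 members, and RBFOX2, ELAVL3 and MSI1 had no entry. Of these 7 genes, 5 had an H3K27ac peak over at least 1 start window, against 61.3% of the 15843 protein-coding genes with an entry. RBFOX1 and RBFOX3 were the 2 without. The lower-coordinate end of RBFOX1, where the interval of this plus-strand gene begins, has no start window. The weak H3K27ac peak near that end, with a value of 3.38, was therefore not counted. A CTCF peak covered a start window in 3 of the 7 (RBFOX3, ELAVL4 and NOVA1), against 24.6%. For RBFOX2, ELAVL3 and MSI1, either gene end was used in place of a start, and all 3 had an H3K27ac peak within 250 bp of one, against 58.4% of all protein-coding genes. By that looser measure 9 of the 10 genes did, with ELAVL4 as the exception, since a gene end need not be a start. These shares rest on few genes, and no difference from the background is read from them. Counted as windows, 8 of 31 had an H3K27ac peak, against 57.8% of the 22199 windows of protein-coding genes, and the 17 windows of RBFOX1 and RBFOX3 contributed 0 of those 8.

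In all, 10 start sequences are shown, with capitals at each CG dinucleotide. Each gene gives its window under the strongest H3K27ac peak, or else one under a CTCF peak, or else the first listed. Added were a window of ELAVL4 under CTCF alone and the acetylated windows of lowest and highest GC content (NOVA1 inner and PTBP1 inner). The sequences are RefSeq sequences of GRCh38.p14, in the direction of transcription. The first pair are 1 of the 12 start windows of the NeuN gene RBFOX3 (chr17:79658926-79659225, minus strand) and 1 of the 5 of RBFOX1 (chr16:6018774-6019073, plus strand). Neither had an H3K27ac peak. The RBFOX3 window held 10 CG dinucleotides at a GC content of 55.7%, and lay under the CTCF peak of 202. The RBFOX1 window held 30 at 69.3%. All windows of RBFOX3 held 4 to 22 CG, and those of RBFOX1 held 5 to 38.
RBFOX3: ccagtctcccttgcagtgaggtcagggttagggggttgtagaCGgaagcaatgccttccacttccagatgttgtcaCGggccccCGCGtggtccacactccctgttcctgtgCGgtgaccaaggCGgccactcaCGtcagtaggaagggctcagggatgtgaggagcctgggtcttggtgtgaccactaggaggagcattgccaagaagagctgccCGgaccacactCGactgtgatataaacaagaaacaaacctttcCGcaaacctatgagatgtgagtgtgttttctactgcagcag
RBFOX1: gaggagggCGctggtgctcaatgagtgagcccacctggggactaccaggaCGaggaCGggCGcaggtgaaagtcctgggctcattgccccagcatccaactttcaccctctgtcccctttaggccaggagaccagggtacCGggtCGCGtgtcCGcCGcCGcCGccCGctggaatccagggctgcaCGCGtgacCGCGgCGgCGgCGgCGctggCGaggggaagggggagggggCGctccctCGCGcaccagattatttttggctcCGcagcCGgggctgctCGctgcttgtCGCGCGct

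The ELAVL4 windows are the outermost start under CTCF alone (chr1:50047805-50048104, plus strand, 20 CG, GC content 57.7%) and the internal start under H3K27ac (chr1:50109583-50109882, plus strand, 8 CG, 47.0%). Of the other 5 windows of this gene, 1 with 6 CG was acetylated, and those without acetylation held 9, 3, 1 and 1.
ELAVL4 outermost: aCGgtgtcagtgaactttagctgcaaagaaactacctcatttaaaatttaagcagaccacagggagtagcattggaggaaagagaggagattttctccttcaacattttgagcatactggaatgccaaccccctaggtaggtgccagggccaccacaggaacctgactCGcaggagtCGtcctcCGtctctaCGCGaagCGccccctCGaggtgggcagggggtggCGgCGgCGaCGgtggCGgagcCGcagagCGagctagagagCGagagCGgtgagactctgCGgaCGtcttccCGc
ELAVL4 internal: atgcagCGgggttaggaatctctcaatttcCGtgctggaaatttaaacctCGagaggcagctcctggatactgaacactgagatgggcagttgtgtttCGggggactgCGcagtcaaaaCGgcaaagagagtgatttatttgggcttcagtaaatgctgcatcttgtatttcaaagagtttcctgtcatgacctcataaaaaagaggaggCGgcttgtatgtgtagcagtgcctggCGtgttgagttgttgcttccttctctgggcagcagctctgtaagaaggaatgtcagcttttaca

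The NOVA1 windows lie in the same wide H3K27ac interval and differ in composition: the outermost start (chr14:26597984-26598283, minus strand) held 31 CG at a GC content of 72.7%, and the inner one (chr14:26596048-26596347, minus strand) held 3 at 36.7%. The NOVA2 start (chr19:45973816-45974115, minus strand) held 30 at 76.7%.
NOVA1 outermost: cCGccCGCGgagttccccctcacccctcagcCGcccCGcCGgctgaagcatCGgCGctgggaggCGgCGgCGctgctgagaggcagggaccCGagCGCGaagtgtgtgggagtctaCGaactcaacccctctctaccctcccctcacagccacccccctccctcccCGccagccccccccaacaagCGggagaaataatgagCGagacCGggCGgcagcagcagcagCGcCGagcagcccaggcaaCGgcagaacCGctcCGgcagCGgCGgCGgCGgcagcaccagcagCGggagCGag
NOVA1 inner: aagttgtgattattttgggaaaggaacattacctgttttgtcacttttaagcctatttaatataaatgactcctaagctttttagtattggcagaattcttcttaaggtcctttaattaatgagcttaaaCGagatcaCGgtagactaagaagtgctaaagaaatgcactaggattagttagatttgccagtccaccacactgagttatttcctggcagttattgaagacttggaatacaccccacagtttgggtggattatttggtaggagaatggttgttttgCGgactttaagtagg
NOVA2: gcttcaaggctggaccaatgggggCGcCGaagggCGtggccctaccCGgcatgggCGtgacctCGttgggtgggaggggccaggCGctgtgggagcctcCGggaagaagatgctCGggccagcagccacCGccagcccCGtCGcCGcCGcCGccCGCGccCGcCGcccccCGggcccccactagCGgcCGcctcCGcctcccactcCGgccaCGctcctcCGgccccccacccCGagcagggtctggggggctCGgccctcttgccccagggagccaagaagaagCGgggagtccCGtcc

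The PTB paralogs close the set. PTBP1 has a pair of CG-rich starts (chr19:797202-797501 with 31 CG at 69.3%, and chr19:797734-798033 with 57 at 82.7%, both plus strand), and PTBP2 has a start with 11 CG at 54.0% (chr1:96722388-96722687, plus strand). The peak overlapping the PTBP2 window had a fold enrichment of 40.8 at its summit, which lay outside the window at 96721869. The strongest peak overlapping the PTBP1 windows had 13.6, and a separate peak of 23.6 ended at 797005, just before them. These values are therefore not measured over the printed bases alone.
PTBP1 outer: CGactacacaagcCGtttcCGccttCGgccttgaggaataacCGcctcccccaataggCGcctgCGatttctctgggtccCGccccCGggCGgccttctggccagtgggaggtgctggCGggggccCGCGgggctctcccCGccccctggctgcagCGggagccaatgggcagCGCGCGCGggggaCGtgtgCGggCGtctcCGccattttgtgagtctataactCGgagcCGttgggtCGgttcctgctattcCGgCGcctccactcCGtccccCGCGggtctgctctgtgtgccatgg
PTBP1 inner: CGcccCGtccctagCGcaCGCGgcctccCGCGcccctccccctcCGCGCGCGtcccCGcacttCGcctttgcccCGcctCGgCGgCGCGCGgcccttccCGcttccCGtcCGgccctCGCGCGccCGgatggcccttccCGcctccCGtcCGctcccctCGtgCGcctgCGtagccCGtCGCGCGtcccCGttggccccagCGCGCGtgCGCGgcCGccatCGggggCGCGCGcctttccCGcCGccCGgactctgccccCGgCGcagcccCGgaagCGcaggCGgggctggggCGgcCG
PTBP2: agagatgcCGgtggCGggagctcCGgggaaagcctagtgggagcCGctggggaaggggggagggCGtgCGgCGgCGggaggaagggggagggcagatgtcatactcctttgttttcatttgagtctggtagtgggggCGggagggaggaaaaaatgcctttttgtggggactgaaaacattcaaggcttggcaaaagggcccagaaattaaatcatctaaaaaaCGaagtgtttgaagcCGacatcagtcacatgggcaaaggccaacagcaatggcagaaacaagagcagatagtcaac

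Across all protein-coding genes, start windows with an H3K27ac peak had a median GC content of 65.7% and a median of 27 CG dinucleotides, and windows without one had 55.3% and 7. The members followed this only in part. Their 8 acetylated windows had a median GC content of 61.7% with 20.5 CG and a range of 36.7 to 82.7%, and their 23 other windows had 55.7% with 9 CG and a range of 37.0 to 73.7%. RBFOX1 had 3 windows with 30 or more CG and no acetylation at any of them. Windows of 1 gene can overlap and share sequence, so these medians describe the windows and carry no test.

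**Figure D4:**
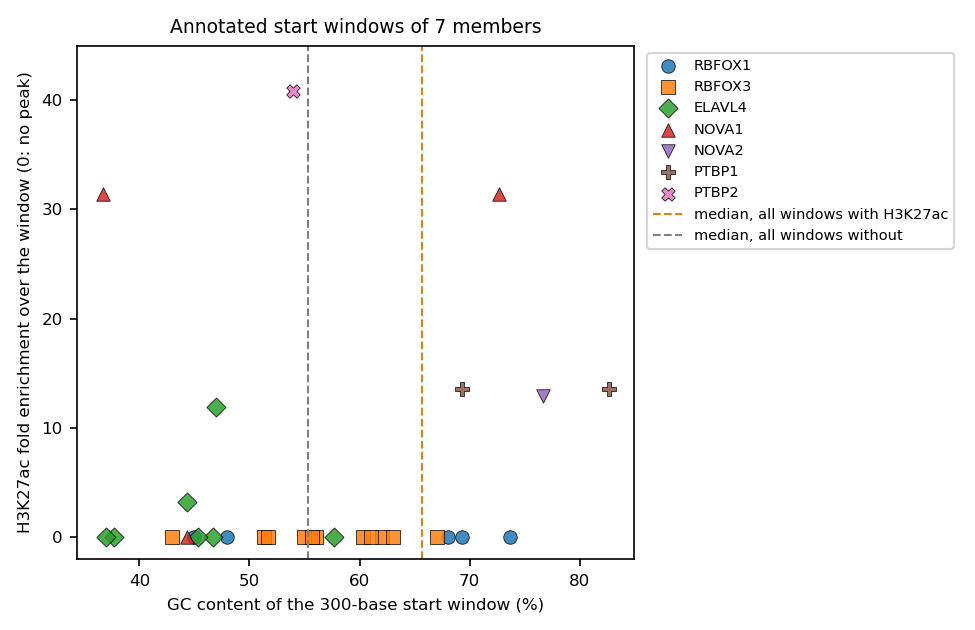
H3K27ac fold enrichment of the strongest peak overlapping each annotated start window (vertical axis, 0 where no peak overlaps) against the GC content of the window. The value is that of the peak summit, which can lie outside the window. Shown are the 31 windows of the 7 genes with RefSeq starts, with GC content of the 300 bases in percent. Dashed lines are the median GC content of all protein-coding start windows with (65.7%) and without (55.3%) an H3K27ac peak; all windows of RBFOX1 and RBFOX3 lie at 0, and the acetylated windows of PTBP2, ELAVL4 and the inner start of NOVA1 lie to the left of both lines.

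Short motifs were searched on both strands of the same windows. The E-box CAGNTG, the site type of proneural factors, was present in 20 of the 31 member windows and in 47.5% of all 22199 windows. The left and right parts of the RE1 element, TTCAGCACC and GGACAGCGC, to which the neuronal gene repressor REST binds, were present in 0 of 31, against 0.351% and 0.712% of all windows. The CTCF core motif was also present in 0 of 31, against 0.414% of all windows and 1.73% of the 4559 windows under a CTCF peak. Matches of this strictness are rare even under CTCF peaks, and their absence says only that these letters are not in these windows.

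Over all 10 genes, 12 of 103 acetylated intervals (11.7%) shared bases with CTCF, against 16.2% in the whole list, and 13 of the 64 CTCF peaks (20.3%) overlapped H3K27ac, against 28.1%. The 13 were unevenly spread: 3 each belonged to ELAVL3, PTBP1 and MSI1, 2 to NOVA2, 1 each to RBFOX2 and NOVA1, and 0 to RBFOX1, RBFOX3 and ELAVL4. The median H3K27ac value over the 103 peaks was 4.61, against 4.74 in the list, and the median CTCF value over the 64 was 101, against 91.0. The medians were thus close to those of the lists, and both overlap shares were lower than in the lists, a difference that was not tested. The flank of 10 kb contributed 19 H3K27ac peaks, 8 of them at NOVA2, and 9 CTCF peaks. Just outside it, at 10 to 20 kb, the strongest H3K27ac peak was one of 17.0 near ELAVL3, against a strongest flanking peak of 8.47 just inside, and MSI1 had 1 of 6.67 outside and 1 of 13.6 inside.

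Other regulators from related lists give the setting. Of 29 further RNA-binding genes, a list that also holds the epithelial regulators ESRP1 and ESRP2 and the pluripotency gene LIN28A, 28 had an H3K27ac peak. Over a start or, with no start entry, near a gene end, 26 had one, against 58.5% of all protein-coding genes. The median highest fold enrichment of the 29 was 18.2. The 3 highest were MBNL1 (53.0), a muscleblind splicing factor, IGF2BP3 (36.6), a binder of fetal messenger RNAs, and PTBP3 (36.2), the third PTB paralog. ESRP1, an epithelial splicing regulator, was the one without a peak. All 24 general splicing factors had an H3K27ac peak, and 23 had one over a start or near a gene end, with a median highest value of 42.8. SRSF6 (64.2), HNRNPK (59.2) and SRSF2 (56.4) led that list. The median over the 10 regulators was 21.6, and MSI1 was the only one of them above the median of the general splicing factors.

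The markers of cell types in the same lists were as follows. All 7 neuron markers had H3K27ac over a start or near a gene end, against the same 58.5%, and so did 5 of 6 neural progenitor markers. Among the 4 astrocyte, 4 oligodendrocyte and 4 pluripotency markers, 3, 0 and 1 did. Over the whole extended interval, the highest values were 17.0 to 47.0 for neuron markers (median 21.2) and 9.81 to 43.9 for progenitor markers (median 37.0). Over a start or near a gene end the medians were lower, 17.9 and 31.3. AQP4, OLIG2 and NANOG had no H3K27ac peak at all, whereas GFAP had one of 62.8 in its interval extended by 10 kb and one of 2.75 near a gene end. Whether the peak of 62.8 covered the start of a neighbouring gene was not checked. The progenitor markers were SOX1 (43.9), SOX2 (41.0), VIM (38.7), NES (35.3), HES1 (16.8, with none at its start) and PAX6 (9.81), and the value of MSI1 (50.3) was above all 6. The values of RBFOX3 (5.96), RBFOX1 (9.91), ELAVL3 (11.6) and ELAVL4 (11.9) were below all 7 neuron markers. Those of the other neuronal regulators, NOVA2 (20.1), NOVA1 (31.4) and PTBP2 (40.8), were not. In bulk chromatin a mark in fewer cells and a weaker mark in all cells cannot be told apart, and the part of the cell mixture in these values was not tested.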

How the data were processed

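The study's 6 libraries are chromatin immunoprecipitations from KOLF2.1J neurons, 2 for CTCF, 2 for H3K27ac and 2 inputs. The values are 2 deposited peak lists, each made by the authors for both replicates together. Single replicates and inputs were not analysed here. The name of the CTCF list carries the label IDR (irreproducible discovery rate) and that of the H3K27ac list does not, so the lists may not have been filtered alike. Per the submitters' processing notes, the build was hg38 and cutadapt 1.16 was used; the aligner, the peak caller and its settings are not given in the sources used here. The deposited CTCF values are a peak signal with no stated scale. The deposited H3K27ac column was read as a fold enrichment (a ratio) from its layout and range. Also deposited, per peak, are −log10 q-values and a display score of at most 1000. Columns of other samples numbered 0. Because depth is unknown, no count test was possible and values were compared only within a list.

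Peaks were joined to RefSeq gene intervals (GRCh38.p14, 24 chromosomes) extended by 10 kb, with an overlap of at least 1 bp, in Python 3.11.15 with pandas 2.3.3. Overlap code was tested on simulated intervals. Starts are RefSeq windows of 250 bases before to 50 after. Genes of similar length differ by at most 20%. All members are named, with their strongest and start peaks; from other lists the 3 highest genes and those without a peak are named. The members, gene lists and alternatives were chosen with earlier results of these data known. Alternatives were other flanks, stricter lists, summit overlap, merged peaks, no 800 bp peaks and other groupings.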

Additional observations from a re-analysis of the deposited data

How the results depend on the processing

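No paired analysis was possible because each list covers both replicates together, which also kept single replicates from being left out. All 10 genes had an H3K27ac peak under each of 5 alternatives. The 9 genes with a CTCF peak became 5 in the 50% of the list with the highest signal values (57.3% of all protein-coding genes) and 7 without peaks of 800 bp, and were 9 under the other 4. The 8 genes with H3K27ac at a start or gene end became 5 when the summit had to lie inside the window, and were 8 under the other 3. The genes lost by the summit rule were MSI1, PTBP2 and NOVA1, which had the highest start values (50.3, 40.8 and 31.4). ELAVL4 stayed through its peak of 3.21, since the summit of its peak of 11.9 lay outside the start windows. For all protein-coding genes the share by the main start measure was 58.5%. Apart from the 57.3%, no such share was calculated under an alternative, so these changes have no background beside them. The ratio of medians, neuronal over the others (0.440), was 0.519 with no flank. Start peaks alone were taken by overlap, wherever the summit lay, with gene ends for the starts of RBFOX2, ELAVL3 and MSI1. With these peaks the ratio was also 0.519. It was 0.506 without the peak over the PLPPR3 start, 0.414 with RBFOX2 counted as neuronal and 0.435 without PTBP2, and did not move with q under 0.01. It reversed to 1.06 with 50 kb of flank, which by construction adds peaks farther from each gene. With 3 and 7 genes and no replicate values, none of these differences has an error of its own.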

Other observations

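Among the further RNA-binding genes, MSI2, the paralog of MSI1, had 142 H3K27ac peaks in its extended interval, the highest number of all 20037 protein-coding genes, in a gene of 446 kb. Its highest fold enrichment was 33.9 and its CTCF peaks numbered 9. CELF2, a CUG-binding splicing factor of neurons and muscle, had 63 and ranked 15, and QKI, a regulator of glial splicing, had 38 and ranked 94. MSI1, in a gene of 29.5 kb, had 4 peaks, 1 of which was the fourth widest in the list. These genes were singled out after their values were seen. Among the general splicing factors, U2AF1 was the one with no H3K27ac peak listed at a start, and its highest listed value was 6.93. Whether reads can be placed uniquely at this gene was not checked, so a missing peak need not mean missing acetylation.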
